A study of Mus musculus with 6 samples.

Results

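Amino acid response genes are the genes that cells switch on when an amino acid runs short. A set of 10 genes was followed here through NRF2 binding sites. It holds Eif2ak4, which encodes the sensor kinase GCN2 itself, and the response genes Atf4, Asns, Trib3, Slc3a2, Psat1, Cars, Pck2, Ddit3 and Chac1. Every peak that the authors' annotation assigned to these genes, at any distance from the transcription start site (TSS), was taken from 4 NRF2 peak lists. That gave 9 of 16057 peaks. The rule takes peaks by gene name alone and uses no peak value.

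NRF2 sites come from ChIP-seq, the sequencing of DNA pulled down with an NRF2 antibody, in mouse embryonic fibroblasts (MEFs) of the strain 129S6/SvEvTac. The conditions were GCN2-/- cells kept for 24 h in DMEM lacking leucine (starved KO), GCN2-/- cells in complete DMEM (fed KO), and wild-type cells under the same regimes (starved WT and fed WT), with 1 library for each. The lists held 4600, 3141, 5980 and 2336 peaks in that order. All libraries used the same NRF2 antibody. Each was called against an input of its own genotype from fed cells, so the starved libraries had no input from their own medium. How the KO line was made, and whether it is a clone, is not stated in the labels. Read depth is unknown, so an absent peak means only that none passed the authors' threshold, and longer lists reach more genes. A peak list holds no expression values, so neither the fibroblast identity of the cells nor the loss of Eif2ak4 could be checked. With 1 library a condition no difference below could be set against replicate spread, and none was tested.

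GCN2 is activated by uncharged tRNA, which builds up when an amino acid such as leucine is missing. It phosphorylates the translation initiation factor eIF2, which lowers protein synthesis in general while raising translation of ATF4. ATF4 is a transcription factor that pairs with C/EBP proteins and activates genes for amino acid synthesis, transport and tRNA charging through a composite element in their promoters. NRF2, encoded by Nfe2l2, binds antioxidant response elements together with small Maf proteins, and several genes of glutathione and cystine metabolism are known targets of both factors.

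RefSeq promoters (GRCm38.p6, the assembly called mm10, from 250 bases before to 50 after the TSS) matched 9 of the 10 members, all but Cars. The C/EBP-ATF composite core, written TGATGNAA and searched on both strands, occurred in the promoters of 4 of these 9 genes, Asns, Trib3, Pck2 and Chac1. It occurred in 4.51% of the 27025 genes with a promoter in the table. These genes are known ATF4 targets, so the matches describe the set and do not test it. The matched stretches are shown because none of them had an NRF2 peak over it in any list. Each is given along the gene's strand, with the match in capitals.
Asns composite, chr6:7693214-7693243, minus strand: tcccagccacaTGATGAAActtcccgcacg
Trib3 composite, chr2:152344028-152344057, minus strand: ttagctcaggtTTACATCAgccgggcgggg
Pck2 composite, chr14:55540152-55540181, plus strand: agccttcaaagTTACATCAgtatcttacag
Chac1 composite, chr2:119351038-119351067, plus strand: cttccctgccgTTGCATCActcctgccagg
Asns antioxidant core, chr6:7693362-7693391, minus strand: tatcctgcctGCAGTGTCAcagcaccttaa
Ddit3 AP-1, chr10:127290543-127290572, plus strand: cgcgcgcaTGACTCActcacctcctccgcg

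The composite match began at -23 bp relative to the TSS in Asns, -103 bp in Pck2 and -193 bp in Chac1, and 14 bp after it in Trib3. Across all 4 lists, the nearest NRF2 peak centre lay 5857 bp from the middle of the Trib3 stretch, 8479 bp from that of Pck2, 53133 bp from that of Chac1 and 56030 bp from that of Asns. The antioxidant response element core, TGACNNNGC on both strands, was found in the promoter of Asns alone among the 9 genes, at -172 bp, and in 14.0% of genes in the table. The AP-1 core TGANTCA was found in Ddit3 alone, at -242 bp, and in 8.97% of genes. The nearest peak centre to the Ddit3 stretch was 64071 bp away. The searched windows hold no part of the peaks themselves.

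Each of the 2 KO lists named 1 of these genes, and the WT lists named 4 and 3. An assigned peak at any distance was found for 1 of 10 members in starved KO cells, where 13.5% of 21900 protein-coding genes had such a peak, and for 1 in fed KO cells, against 9.89% of coding genes. It was found for 4 members in starved WT cells, against 17.3%, and for 3 in fed WT cells, against 7.93%. Within 10 kb of the TSS the counts were 0, 0, 3 and 1 members in the same order, against 4.03%, 3.03%, 6.17% and 2.28% of coding genes. With 10 genes each member counts for 10 percentage points, so at any distance the KO counts lie close to what the share of all genes gives, and the WT counts lie above it by about 2 genes each.

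Over the 4 lists together, 6 members had an assigned peak, and 31.1% of coding genes had a peak in at least 1 list. Psat1 was the member named in every list, and the other 5, Eif2ak4, Asns, Slc3a2, Cars and Pck2, were each named in 1 list. Atf4, Trib3, Ddit3 and Chac1 had no assigned peak in any list. None of the 9 peaks overlapped a peak of another list, and the nearest peak centre of another list was at least 16717 bp away. Over the 4 lists 16.2% of the 16057 peaks overlapped one of another list (14.0%, 18.4%, 12.6% and 27.0% in the order of the lists above), so non-overlap was the usual state of a peak and 0 of 9 does not set the members apart. Of the 9 windows, 4 were annotated as intergenic, 3 as intron, 1 as exon and 1 as promoter, and 1 of the intergenic windows lay in a repeat element.

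**Figure D1:**
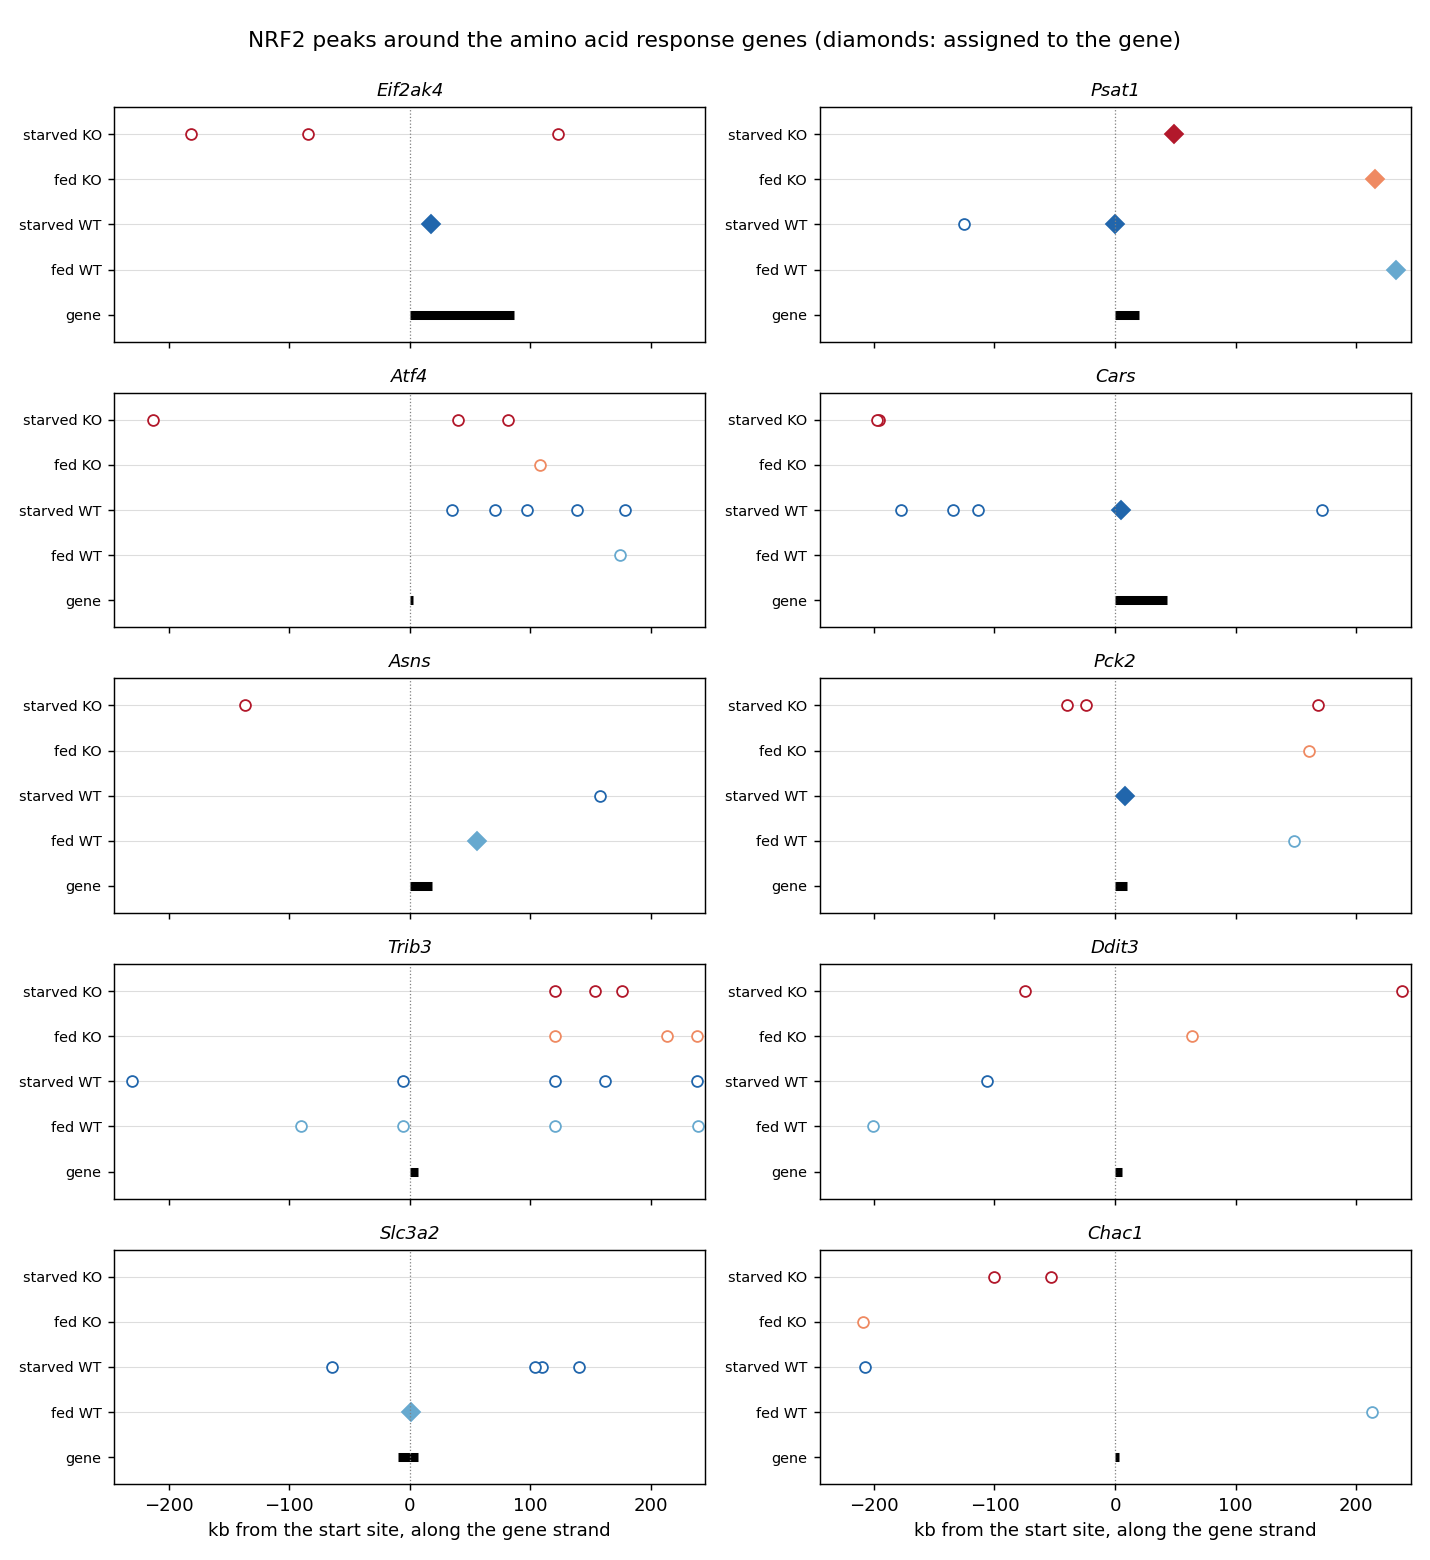
NRF2 peak centres within 240 kb of the start site of each of the 10 genes (x axis, kb along the gene's strand), with a row for each library and the gene body as a black bar. Filled diamonds are peaks the authors assigned to the gene and open circles are all other peaks, and the paired circles upstream of Trib3 at -5839 and -5918 bp appear in both WT rows and in neither KO row.

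Eif2ak4, the sensor, carried its peak in starved WT cells, at chr2:118405935-118406235, in intron 3 of 38 and 16973 bp downstream of the TSS. The map of peak centres uses another start site and places this peak at 17.468 kb. Its score was 30, a value shared by 913 peaks of that list, so its rank ran from 2557 to 3469 of 5980. In starved KO cells the peak nearest to the Eif2ak4 gene body lay 35826 bp away and was assigned to Srp14. In fed KO cells it lay 183837 bp away, and in fed WT cells 175906 bp away, and both of these were assigned to Pak6. Eif2ak4 is the gene knocked out in the KO cells, in a way the labels do not state.

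Atf4, the transcription factor at the centre of the response, had its nearest peaks in the neighbouring calcium channel gene Cacna1i in 3 lists. They lay 37370 bp from the Atf4 gene body in starved KO cells, 105411 bp in fed KO cells and 32091 bp in starved WT cells. The first and the third of these were in intron 1 of 36 of Cacna1i, and the second was in intron 10. In fed WT cells the nearest peak was 171403 bp away. No peak was within 30 kb of Atf4 in any condition.

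Ddit3 encodes CHOP, a transcription factor that acts downstream of ATF4 in prolonged stress, and Chac1 encodes an enzyme that breaks down glutathione. The peak nearest to Ddit3 was 74215 bp from the gene body in starved KO cells, 58187 bp in fed KO cells, 105969 bp in starved WT cells and 200883 bp in fed WT cells. For Chac1 these distances were 53173, 208602, 207131 and 210223 bp in the same order. Neither gene thus had a peak within 50 kb in any list, and for both the nearest peak of all was in a KO list.

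Trib3 encodes a pseudokinase that is induced by ATF4 and dampens its activity. It was the member with a recurrent NRF2 site close by, although the site did not carry its name. In starved WT cells the peak was at chr2:152349749-152350049, with a score of 40 and rank 1493 of 5980. In fed WT cells it was at chr2:152349828-152350128, with a score of 43 and rank 945 of 2336. The windows overlap and lie at -5839 and -5918 bp relative to the Trib3 TSS. The annotation gave them to Gm14164, a non-coding gene whose TSS is nearer, at 4230 and 4309 bp, and placed them in its intron 1 of 4. In GCN2 KO cells the peaks nearest to the Trib3 gene body were 113215 bp away without leucine and 113228 bp away in complete medium, and both were assigned to Csnk2a1. Their centres lay 120.0 and 120.013 kb downstream of the Trib3 TSS. The WT lists had peaks at that place too, at 120.018 kb without leucine and 120.024 kb in complete medium.

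A region found in both WT lists and neither KO list lay within 10 kb of the gene body for 0.603% of coding genes, and a region of any 2 or more lists did so for 3.32%. Trib3 was the only one of the 10 members in either group. It was picked out after the peaks around the members had been seen. For the other 9 members the nearest region shared by 2 or more lists was between 183837 bp (Eif2ak4) and 5347734 bp (Psat1) from the gene body. The site near Eif2ak4 was in all 4 lists and was assigned to Pak6.

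Psat1 encodes phosphoserine aminotransferase, an enzyme of serine synthesis, and had a peak at a different place in each condition. In starved KO cells it was at chr19:15875856-15876156, 48616 bp downstream of the TSS, with a score of 22 and rank 3925 of 4600. In fed KO cells it was at chr19:15708986-15709286, 215486 bp downstream, with a score of 17 and rank 3079 of 3141. In starved WT cells it was at chr19:15925323-15925623, annotated as promoter and centred at -414 bp, with a score of 29 and rank 3470 of 5980. The deposited distances refer to 2 annotated start sites 437 bp apart, the outer one for this window and the inner one for the Psat1 peaks of the other lists, and the map of peak centres uses the outer one.

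In fed WT cells the Psat1 peak was at chr19:15692269-15692569, 232203 bp downstream of the TSS, with a score of 66 and rank 420 of 2336. The 3 distant peaks lay in a stretch without coding genes between Tle4 and Psat1, and the peak of the starved KO list was 1277673 bp from Tle4. The name Psat1 in all 4 lists therefore stands for 4 separate positions, of which the closest pair, in complete medium, were 16717 bp apart. The promoter window was found in starved WT cells alone, and the nearest peak in any other list was 49467 bp from it.

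Asns, which makes asparagine and is among the best known ATF4 targets, had a peak in fed WT cells alone. It was at chr6:7637048-7637348, 55984 bp downstream of the TSS, inside a long terminal repeat element of the ERVL-MaLR family, with a score of 16 and rank 2309 of 2336. Only 37817 bp separated this window from the gene body, whereas the nearest peak was 136550 bp away in starved KO cells, 601845 bp in fed KO cells and 139356 bp in starved WT cells.

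Pck2, the mitochondrial enzyme that makes phosphoenolpyruvate, had its peak in starved WT cells, at chr14:55548495-55548795, in exon 10 of 10 and 8379 bp downstream of the TSS. Its score of 24 was shared by 759 peaks, at ranks 4126 to 4884 of 5980. The nearest peak was 23759 bp from the Pck2 gene body in starved KO cells, in exon 14 of 17 of Cpne6. It was 150530 bp away in fed KO cells and 138500 bp away in fed WT cells.

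Cars, the cysteinyl-tRNA synthetase gene, had its peak in the same library, at chr7:143595233-143595533, in intron 1 of 22 and 4707 bp downstream of the TSS. Its score was 38, at ranks 1524 to 2076 of 5980, the highest of the 4 member peaks in that list. Elsewhere the nearest peak was 195944 bp from the gene body in starved KO cells, 376472 bp in fed KO cells and 391278 bp in fed WT cells.

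Slc3a2 encodes the heavy chain that carries the leucine transporter Slc7a5 and the cystine transporter Slc7a11 to the cell surface. Its peak was in fed WT cells, at chr19:8712935-8713235, in intron 1 of 8 and 812 bp downstream of the TSS, with a score of 45 and ranks 874 to 917 of 2336. The nearest peak was 255156 bp from the gene body in starved KO cells, 454478 bp in fed KO cells and 55083 bp in starved WT cells. The Slc3a2 and Psat1 windows were the only member peaks within 1 kb of a TSS, and they came from different media.

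By the authors' score, 6 of the 9 member peaks lay at or below the median of their list. The score is a whole number given with each peak and ranks peaks within a list only. Of the 9 peaks, 3 scored above the median of their list, namely Cars in starved WT cells, where the median was 30, and Psat1 and Slc3a2 in fed WT cells, where it was 38. The share of the list scoring as high or higher was 34.7% for Cars, 18.3% for Psat1 and 39.3% for Slc3a2. The Psat1 peaks of the KO lists scored 22 and 17, against list medians of 31 without leucine and 34 in complete medium, and 86.7% and 98.9% of those lists scored as high or higher. For Asns that share was 99.7% of its list. In starved WT cells it was 81.7% for Pck2, 61.1% for Psat1 and 58.0% for Eif2ak4.

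Well known NRF2 targets give the scale. Ftl1, the ferritin light chain gene, scored 974 in starved KO cells, 1159 in fed KO cells, 1984 in starved WT cells and 1271 in fed WT cells. The best Hmox1 peak within 10 kb scored 508, 470, 635 and 213 in the same order, and that of Gclc 373, 453, 1046 and 1107. Gclc encodes the catalytic subunit of glutamate-cysteine ligase, an enzyme of glutathione synthesis. Nqo1, the quinone reductase, scored 52, 56, 91 and 21, so not every known target stood high, and in fed WT cells its peak was below those of Psat1 and Slc3a2. Slc7a11 had a peak within 10 kb in starved WT cells alone, with a score of 90. No member peak scored above 66. The GC fraction of the member windows ran from 0.478 to 0.565, around list medians between 0.512 and 0.522, and their CpG fraction ran from 0.00333 to 0.0333, around a median of 0.0133 in every list.

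**Figure D2:**
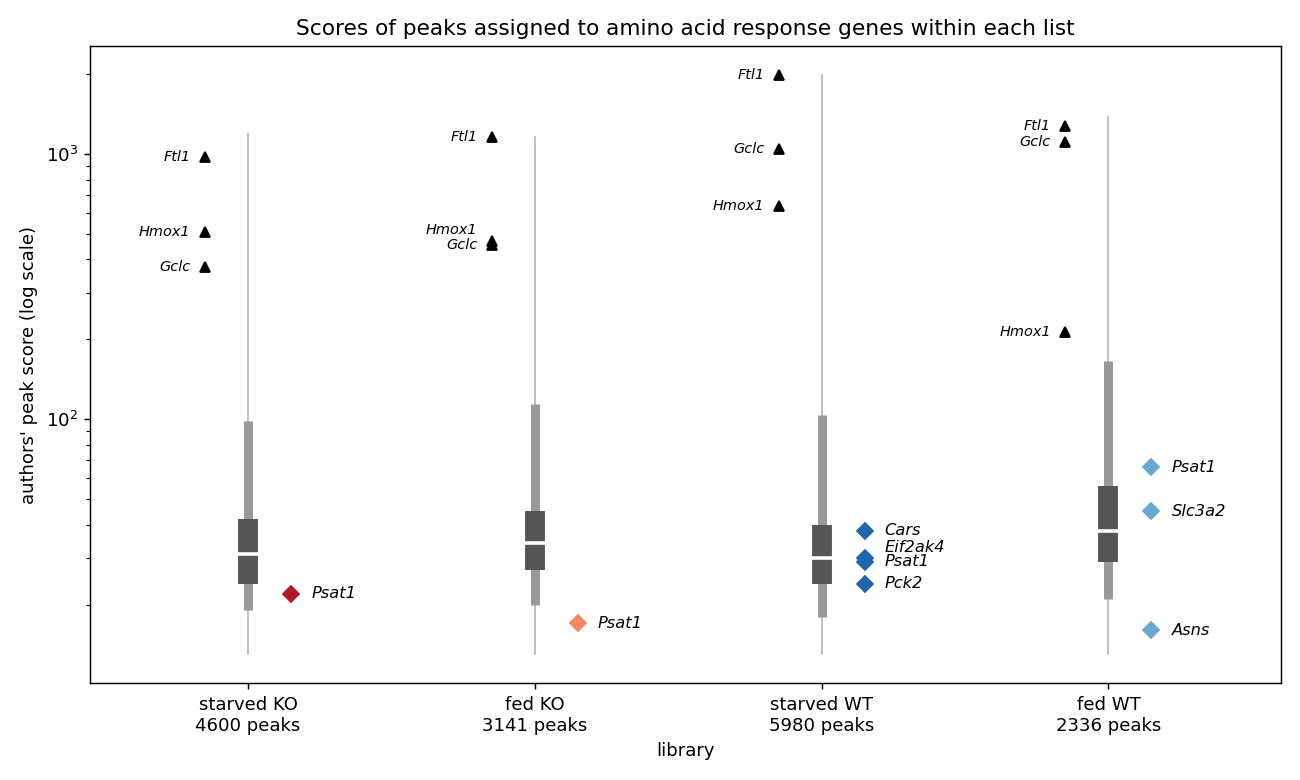
Authors' peak scores (y axis, log scale) in the 4 lists (x axis), with the full range as a thin line, the 5th to 95th percentile as a grey bar, the middle 50% as a dark bar and the median in white. Coloured diamonds are the 9 peaks assigned to members, of which the highest, Psat1 in fed WT cells, scored 66. Black triangles are the best peaks of Ftl1, Hmox1 and Gclc within 10 kb. Nqo1, which scored between 21 and 91, and Slc7a11, with such a peak in starved WT cells alone, are not drawn.

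Starved GCN2 KO cells were compared with starved WT cells, to ask whether loss of the sensor went with other NRF2 sites at its own gene and the response genes. Psat1 was named in both lists, at positions 49467 bp apart, and no member was named in the KO list alone. Eif2ak4, Cars and Pck2 were named in the WT list alone. Eif2ak4 is the gene knocked out, in a way the labels do not state. Its absence from the KO list therefore cannot be read like that of Cars or Pck2. Over all coding genes, 7.39% had an assigned peak in the KO list alone, 11.2% in the WT list alone and 6.13% in both. The KO list was also the shorter, with 4600 against 5980 peaks.

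Among fed cells the KO list held 3141 peaks and named 1 member, and the WT list held 2336 peaks and named 3. Within 10 kb of the TSS the counts were 0 and 1, beside 3.03% and 2.28% of coding genes. Psat1 was in both lists, Asns and Slc3a2 were in the WT list alone, and none was in the KO list alone. Of coding genes, 7.16% had an assigned peak in the KO list alone, 5.20% in the WT list alone and 2.73% in both.

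Leucine withdrawal within GCN2 KO cells left Psat1 as the single named member on either side, at sites 166870 bp apart. Of coding genes, 9.29% had an assigned peak without leucine alone, 5.67% in complete medium alone and 4.23% in both. In WT cells, Eif2ak4, Cars and Pck2 were named without leucine alone, Asns and Slc3a2 in complete medium alone, and Psat1 in both at sites 233054 bp apart. The background shares were 13.2% without leucine alone, 3.81% in complete medium alone and 4.11% in both. With every list limited to its 2336 highest-scoring peaks, the WT lists named 1 member without leucine, Cars, and 3 in complete medium. The full lists named 4 and 3. Neither KO list named any at that length. The fed WT list holds 2336 peaks and so was not cut. No share of coding genes is given at this length, so no direction is read from these counts. These 4 comparisons share libraries, so the WT-alone genes of the genotype comparisons and those of the medium comparison are the same peaks.

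Nearest-TSS naming gives each peak to 1 gene, so peaks were also counted by distance from the gene body, whatever their assigned gene. The limit of 10 kb from the gene body was chosen after the data were seen. No member had any peak within 10 kb of its body in starved KO cells, where 13.1% of coding genes had such a peak, or in fed KO cells, where 9.95% had. In starved WT cells 5 members did, Trib3, Psat1, Eif2ak4, Cars and Pck2, against 18.8% of coding genes. In fed WT cells 2 did, Trib3 and Slc3a2, against 7.88%.

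At 50 kb from the gene body the counts were 4 of 10 in starved KO cells (27.9% of coding genes), 0 in fed KO cells (21.7%), 6 in starved WT cells (37.5%) and 3 in fed WT cells (17.1%). The 4 of the starved KO list were Eif2ak4, Atf4, Psat1 and Pck2, with peaks between 23759 and 37370 bp away. The median gap over the 10 members was 63694 bp, 189837 bp, 18890 bp and 173655 bp in the same order, against 141973 bp, 202956 bp, 90838 bp and 274437 bp over coding genes on chromosomes with a peak. The member medians were thus below those of all genes in all 4 lists, by the least in fed KO cells.

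**Figure D3:**
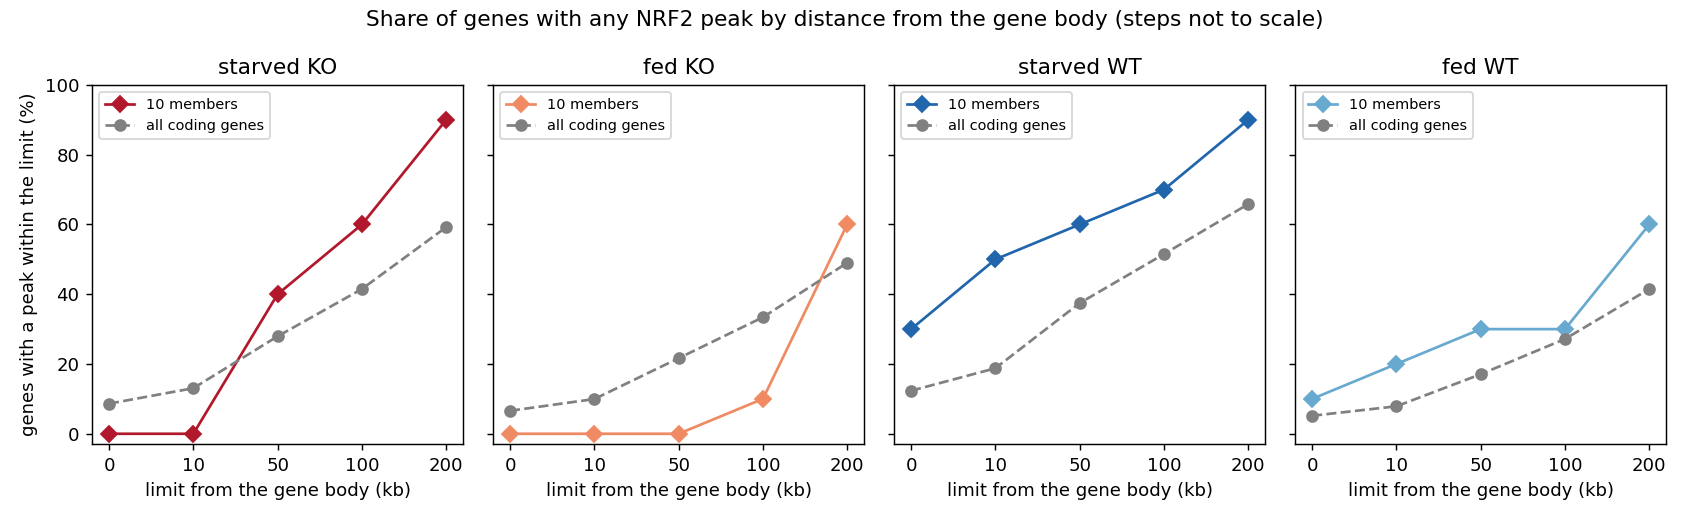
Share of genes (y axis, %) with any NRF2 peak within a limit of 0, 10, 50, 100 or 200 kb from the gene body (x axis, steps not to scale), for the 10 members (diamonds) and for 21900 coding genes (grey circles) in each library. At 10 kb the members stand at 0% in both KO lists, at 50% in starved WT cells and at 20% in fed WT cells. The 10 kb limit was chosen after the data were seen. At 200 kb they stand at 90%, 60%, 90% and 60% in starved KO, fed KO, starved WT and fed WT cells. Coding genes stand there at 59.2%, 49.0%, 65.8% and 41.5% in the same order.

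Another 78 genes of the same pathway were counted in the same way: 15 of the GCN2 and eIF2 machinery, 18 ATF4 partners and stress targets, 11 amino acid transporters, 15 enzymes of amino acid and one-carbon metabolism and 19 cytosolic tRNA synthetases. An assigned peak at any distance was found for 8 of the 78 in starved KO cells, 11 in fed KO cells, 13 in starved WT cells and 7 in fed WT cells. These were 10.3%, 14.1%, 16.7% and 8.97% of the 78 genes, beside 13.5%, 9.89%, 17.3% and 7.93% of coding genes in the same libraries. Within 10 kb of a TSS the counts were 2, 1, 2 and 1, or 2.56%, 1.28%, 2.56% and 1.28% of the 78 genes. The shares of coding genes were 4.03%, 3.03%, 6.17% and 2.28%. With 78 genes each gene counts for 1.28 percentage points, so the gaps are of few genes and no depletion is read from them.

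Those 6 peaks belonged to 6 genes, and none overlapped a peak of another list, beside 16.2% of all peaks that did. In starved KO cells they included Vegfa, the angiogenic growth factor, at 692 bp in exon 1 of 5 (score 24). In fed KO cells the gene was Qars, the glutaminyl-tRNA synthetase, at -6783 bp (score 35), in the last exon of a neighbouring transcript. In starved WT cells they were Slc7a11, the cystine transporter, at 5354 bp in intron 2 of 11 (chr3:50438109-50438409, score 90, rank 368), and Eif2s2, the beta subunit of eIF2, at -8628 bp in a SINE repeat (score 54).

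In fed WT cells the gene was Eif2ak2, which encodes PKR, the eIF2 kinase that responds to double-stranded RNA. Its peak was at 4288 bp in intron 1 of 15 (score 34). Slc7a11 scored higher than any member peak. Of the 61 pathway genes with a promoter in the table, 16 held the composite core TGATGNAA, 18 the antioxidant core TGACNNNGC and 5 the AP-1 core TGANTCA. Over the 27025 genes with a promoter the shares were 4.51%, 14.0% and 8.97%. As for the members, these matches describe the set and were not tested.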

How the data were processed

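NRF2 ChIP-seq libraries were sequenced as single 50 bp reads, per the labels' protocols. BWA 0.7.12, MACS2 2.1.0, HOMER 4.7 and the mm10 build are named in the submitters' processing notes, without settings. Peaks were called per library against an input and annotated with the nearest TSS in 300 bp windows, per the file headers. The deposited peak score is a whole number, and neither headers nor notes say which caller column it holds. The deposited CpG and GC values are a fraction of the window. The 2 input samples have no file of their own used here.

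Members were matched by Entrez ID to the GRCm38.p6 gene table (10 of 10, and 78 of 78 pathway genes). Ranks count from the highest score, and ties share the best rank. Between 80.8% and 83.1% of deposited distances with a TSS in the promoter table fell within 2 bp of it. Overlap meant at least 1 bp. Background shares are over 21900 protein-coding genes. The gap function was tested on simulated peaks, and the region-merging and motif functions on small planted examples (Python 3.11.15, pandas 2.3.3). The count of overlaps between a member peak and other lists was not tested in this way. All 10 members, pathway genes with a peak within 10 kb and 5 NRF2 targets were to be named. The result of 1 pathway gene is not reported here. Members and lists were chosen with earlier results of these data known.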

Additional observations from a re-analysis of the deposited data

Results flagged for a closer look

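The number of pathway genes outside the 10 members with an assigned peak moved in opposite directions with leucine withdrawal in the 2 genotypes. It was 8 without leucine and 11 in complete medium in GCN2 KO cells, a difference of -3, and 13 without leucine and 7 in complete medium in WT cells. Put by medium, GCN2 KO cells had 8 and WT cells 13 without leucine, a difference of -5, whereas GCN2 KO cells had 11 and WT cells 7 in complete medium. These were 10.3%, 14.1%, 16.7% and 8.97% of the 78 genes in starved KO, fed KO, starved WT and fed WT cells, beside 13.5%, 9.89%, 17.3% and 7.93% of all coding genes. The WT counts thus lie close to the shares of all genes. The KO share was below that of all genes without leucine and above it in complete medium. With 78 genes each gene counts for 1.28 percentage points. These gaps are therefore of few genes, and no movement of the set is read from them. Each count comes from 1 library, and the difference between these effects was not tested. List length moves with these counts in WT cells. At equal list lengths the counts were 6 without leucine and 10 in complete medium in GCN2 KO cells, and 7 and 7 in WT cells. No share of coding genes is given at that length, so no direction is read from these counts.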

How the results depend on the processing

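Counts are given in the order starved KO, fed KO, starved WT and fed WT. Members with an assigned peak, 1, 1, 4 and 3 at any distance, were 0, 0, 2 and 2 in the higher-scoring 50% of each list (ties at the limit kept), 0, 0, 1 and 3 at equal list lengths of 2336 peaks, 1, 0, 4 and 1 within 50 kb of the TSS, 0, 0, 3 and 1 within 10 kb and 0, 0, 1 and 1 within 1 kb. By any peak near the gene body they were 4, 0, 6 and 3 within 50 kb and 0, 0, 5 and 2 within 10 kb, the last a setting chosen after seeing the data. The peaks themselves gave the same counts as the members under the settings run for both, and leaving out satellite and simple repeats and minor chromosomes changed none of them. At equal lengths WT cells had fewer members without leucine (1) than in complete medium (3), beside 4 and 3 in the full lists. The fed WT list was not cut at that length, and 3 of the 4 member peaks of starved WT cells ranked below the limit. No share of coding genes is given for the higher-scoring 50%, for equal lengths, or within 50 kb or 1 kb of the TSS. No direction is read from those counts. Pathway genes, 8, 11, 13 and 7, were 6, 5, 8 and 1 in the higher-scoring 50%, 6, 10, 7 and 7 at equal lengths, 6, 8, 6 and 3 within 50 kb and 2, 1, 2 and 1 within 10 kb. For these too, shares of coding genes are given only at any distance and within 10 kb, and no direction is read from the other counts. Member peaks overlapping another list stayed at 0 with a reciprocal overlap of 50%, with windows widened by 500 bp on each side and with centres within 100 bp. Unknown read depth limits every absence. No paired analysis was possible because each condition has 1 library and the labels give no replicate numbers.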

Other observations

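Outside the 10 kb limit, the highest-scoring sites assigned to pathway genes were upstream of Vegfa and Ppp1r15b, chosen here after their values were seen. A site upstream of Vegfa was in 3 of the 4 lists. It scored 141 in fed KO cells (rank 102 of 3141, -37932 bp), 300 in starved WT cells (rank 55 of 5980, -37921 bp) and 162 in fed WT cells (rank 120 of 2336, -37936 bp). The list of starved KO cells held no peak overlapping it. Ppp1r15b encodes a subunit of the phosphatase that removes the phosphate from eIF2. Its peak was in starved KO cells alone, -16091 bp from the TSS in a SINE element, with a score of 140 and rank 143 of 4600. Of 44 peaks assigned to pathway genes, 4 overlapped a peak of another list, namely the 3 Vegfa windows and a Herpud1 window of starved KO cells. Of all 16057 peaks, 16.2% overlapped one of another list.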
